A study of Mus musculus with 28 samples.

Results

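Regulatory T (Treg) cells carry a set of transcripts that sets them apart from conventional CD4+ T cells, and 8 of these genes are described here: Nrp1, Nrn1, Izumo1r, Gpr83, Capg, Swap70, Plagl1 and Ecm1. They are 8 of the 43430 gene IDs in the count tables, all 8 were found by symbol, and all 8 passed the filter on low counts in every comparison. The genes were chosen as a set whose directions of change split between settings in these libraries. Within it, Nrp1 and Capg had a negative log2 fold change against every control, and Swap70 a positive one. Some of these values lay near 0, and some of those of Nrp1 and Swap70 turned sign with a library left out. Because the genes were chosen in this way, levels and fold changes of the 8 genes are given as a description, with no test of their own. A surface protein is encoded by 4 of them (Nrp1, Nrn1, Izumo1r and Gpr83), while Capg and Swap70 encode cytoplasmic proteins, Plagl1 a nuclear one and Ecm1 a secreted one.

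The series is RNA-seq of sorted CD4+ T cells of C57BL/6NJ mice, positive for a YFP reporter of Foxp3 and for the IL-2 receptor chain CD25, and asks what mitochondrial complex III does in Treg cells. RISP is the Rieske iron-sulfur protein, a catalytic subunit of complex III encoded by Uqcrfs1. RISP_KO and RISP_WT were sorted from mice of 3 weeks (n = 4 each), and RISP_Chimera_KO and RISP_Chimera_WT from chimeric mice of 8 to 12 weeks (n = 4 each). The third set holds wild-type cells of 3-week-old mice kept in vitro (n = 3 each) in 4 groups: piericidin at 1 µM, which blocks complex I, 3-NPA (3-nitropropionic acid) at 500 µM, which blocks complex II, antimycin A at 1 µM, which blocks complex III, and untreated cells. Every inhibitor group is set against the same 3 untreated libraries, so the inhibitor comparisons share their control. The labels used here give neither the Cre driver of the deletion, nor how the chimeras were made, nor how long the inhibitors were applied, and they do not say whether replicates are separate mice. A p-value therefore speaks only of library-to-library spread, part or all of which may be technical.

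Nrp1 encodes neuropilin-1, a co-receptor for semaphorins and VEGF that marks most thymus-derived Treg cells in mice. Binding of semaphorin-4A to neuropilin-1 on mouse Treg cells is known to restrain Akt and keep Foxo factors in the nucleus. Nrn1 encodes neuritin, a small membrane-anchored protein first known from neurons, and Izumo1r encodes folate receptor 4, the egg receptor for the sperm protein IZUMO1 that is also abundant on mouse Treg cells. Gpr83 is a G protein-coupled receptor, Capg caps the fast-growing ends of actin filaments, and Swap70 binds actin and Rac in cells moving or receiving antigen signals. Plagl1 is an imprinted zinc-finger transcription factor, and Ecm1 is a secreted glycoprotein of the extracellular matrix.

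The genes lie on separate chromosomes in mm10, except for Gpr83 and Izumo1r. Gpr83 (chr9:14860210-14870789, plus strand) and Izumo1r (chr9:14885814-14903949, minus strand) point at each other from 15024 bases apart, with no protein-coding gene nearer to either. Nrp1 lies at chr8:128359073-128505462, Nrn1 at chr13:36725625-36734477, Capg at chr6:72544391-72562983, Swap70 at chr7:110221703-110283503, Plagl1 at chr10:13060504-13131694 and Ecm1 at chr3:95734147-95739569. Nrn1 overlaps Fars2 and the antisense transcript Gm30177 on the other strand, and Swap70 overlaps the antisense transcript Gm45515. The strand setting of the counting is not given in the sources used here, so reads of these partners cannot be told apart.

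The 250 bases before the RefSeq start of Gpr83, Ecm1 and Swap70 (RefSeq, GRCm38.p6) are printed 5′ to 3′. They are chr9:14859960-14860209 on the plus strand, chr3:95739570-95739819 on the minus strand and chr7:110221453-110221702 on the plus strand. These 3 genes were taken because they separated antimycin A from untreated libraries in different ways, Gpr83 lower and the other 2 higher. Izumo1r and Plagl1 also separated those libraries, both lower, and their windows are not printed. Capitals mark matches to a forkhead motif (GTAAACA), an ATF4 and C/EBP motif (TGATGNAA), an E-box (CACGTG), an AP-1 motif (TGANTCA), a GC box (GGGCGG) or a STAT motif (TTCNNNGAA), searched on both strands.
Gpr83: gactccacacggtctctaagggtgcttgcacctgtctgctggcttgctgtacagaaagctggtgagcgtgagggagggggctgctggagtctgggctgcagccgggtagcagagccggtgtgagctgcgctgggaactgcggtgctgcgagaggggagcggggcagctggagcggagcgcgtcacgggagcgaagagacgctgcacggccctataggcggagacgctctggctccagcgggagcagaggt
Ecm1: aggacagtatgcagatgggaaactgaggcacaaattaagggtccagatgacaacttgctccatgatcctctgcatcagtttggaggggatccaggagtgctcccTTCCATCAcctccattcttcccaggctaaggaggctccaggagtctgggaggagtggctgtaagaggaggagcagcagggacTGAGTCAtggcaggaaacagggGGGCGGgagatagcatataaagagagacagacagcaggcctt
Swap70: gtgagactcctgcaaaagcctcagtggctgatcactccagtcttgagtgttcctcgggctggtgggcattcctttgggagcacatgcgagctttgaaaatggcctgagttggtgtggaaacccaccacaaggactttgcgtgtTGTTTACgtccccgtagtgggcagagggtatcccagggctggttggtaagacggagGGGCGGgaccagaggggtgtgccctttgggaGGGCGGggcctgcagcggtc

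The window of Gpr83 held none of the 6 motifs. That of Ecm1 held 1 ATF4 and C/EBP match, read here on the other strand, 1 AP-1 match and 1 GC box, with no overlap between them. That of Swap70 held 1 forkhead match, also on the other strand, and 2 GC boxes. Of the windows not printed, that of Izumo1r held none of the motifs and that of Plagl1 held 1 E-box and 2 GC boxes. A link between motifs and direction was not tested. Among 32851 mouse promoter windows of the same length, 3.17% hold the forkhead motif, 3.45% the ATF4 and C/EBP motif, 6.02% the E-box, 6.75% the AP-1 motif, 32.7% the GC box and 7.02% the STAT motif. GC content was 66.8% for Gpr83, 54.0% for Ecm1 and 59.6% for Swap70, beside a median of 52.4% over all windows. A match is a run of letters and not a measured binding site.

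Total counts a library were 28446051 to 50769961 for RISP_KO and RISP_WT, 20437386 to 31019835 for both chimera groups and 2707199 to 3445930 for the in vitro groups, and levels are given as CPM on library sizes scaled by TMM. Uqcrfs1 stood at 5.20 to 7.28 CPM in RISP_KO against 151 to 189 CPM in RISP_WT, while in chimeras it stood at 4.83 to 11.3 CPM (RISP_Chimera_KO) against 72.7 to 87.7 CPM (RISP_Chimera_WT). All 8 T and Treg cell markers were detected in every group, but Foxp3 averaged only 33.5 ± 5.8 CPM in RISP_KO and 33.2 ± 2.3 CPM in RISP_WT (SD, n = 4 each), beside means of 452 to 784 CPM in the other 6 groups. In vitro Foxp3 was called higher with piericidin (784 ± 41 CPM, edgeR adjusted p = 0.000169) and antimycin A (698 ± 130 CPM, adjusted p = 0.0093), against 552 ± 21 CPM untreated. The antimycin A call was lost in 3 of 6 fits with 1 library left out (edgeR adjusted p = 0.0519 to 0.128). Together the 8 markers summed to 7132 to 7311 CPM with piericidin, against 6751 to 6922 CPM untreated, which 3-NPA and antimycin A overlapped. The RISP_KO and RISP_WT libraries were made with another kit than the chimera and in vitro libraries. Across tables, kit therefore cannot be told apart from age and chimera, or, for the in vitro groups, from culture. Summed levels of 12 macrophage and monocyte markers were 6.30 to 12.5 CPM in RISP_KO against 16.4 to 51.3 CPM in RISP_WT, while RISP_Chimera_KO had 31.3 to 92.1 CPM and RISP_Chimera_WT 25.9 to 61.4 CPM, with replicates 2 and 4 of RISP_Chimera_KO highest at 76.4 and 92.1 CPM. In vitro these sums were 15.3 to 24.3 CPM in all groups. Summed levels of 8 B cell markers, mostly Ighm, were 586 to 777 CPM in RISP_KO against 777 to 958 CPM in RISP_WT, and 275 to 293 CPM with piericidin, 317 to 463 CPM with 3-NPA and 346 to 440 CPM with antimycin A against 492 to 551 CPM untreated, while the B cell gene Ms4a1 was at 0 in all 4 in vitro groups. Between RISP_KO and RISP_WT the B cell sums overlapped narrowly, while the macrophage and monocyte sums did not overlap. Of the other marker sums 4 did not overlap either, being 359 to 436 against 188 to 250 CPM for plasma cells, 12.4 to 21.7 against 3.89 to 7.0 CPM for NK cells, 3.27 to 5.95 against 6.02 to 7.20 CPM for dendritic cells, and 120 to 144 against 195 to 209 CPM for epithelial, stromal and endothelial cells. In vitro, plasma cell sums were 145 to 177 CPM with 3-NPA and 144 to 181 CPM with antimycin A, against 188 to 192 CPM untreated. With piericidin they were 171 to 209 CPM. The plasma cell sum was mostly Xbp1 (mean 380 CPM in RISP_KO against 214 CPM in RISP_WT), while Sdc1 (0.34 against 0.51), Jchain (0.53 against 0.63) and Mzb1 (0.21 against 0.39) were lower in RISP_KO. In the NK cell sum of RISP_KO Eomes was higher (13.5 against 1.59 CPM) and Klrb1c lower (2.92 against 3.92 CPM). The epithelial, stromal and endothelial sum was mostly Pecam1 (104 against 163 CPM). Dendritic cell sums also separated the chimeras, at 4.85 to 8.51 CPM in RISP_Chimera_KO and 3.90 to 4.81 CPM in RISP_Chimera_WT. The part of these markers in the results was not tested. In bulk samples, fewer cells of a type and less RNA per cell cannot be told apart.

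**Figure D1:**
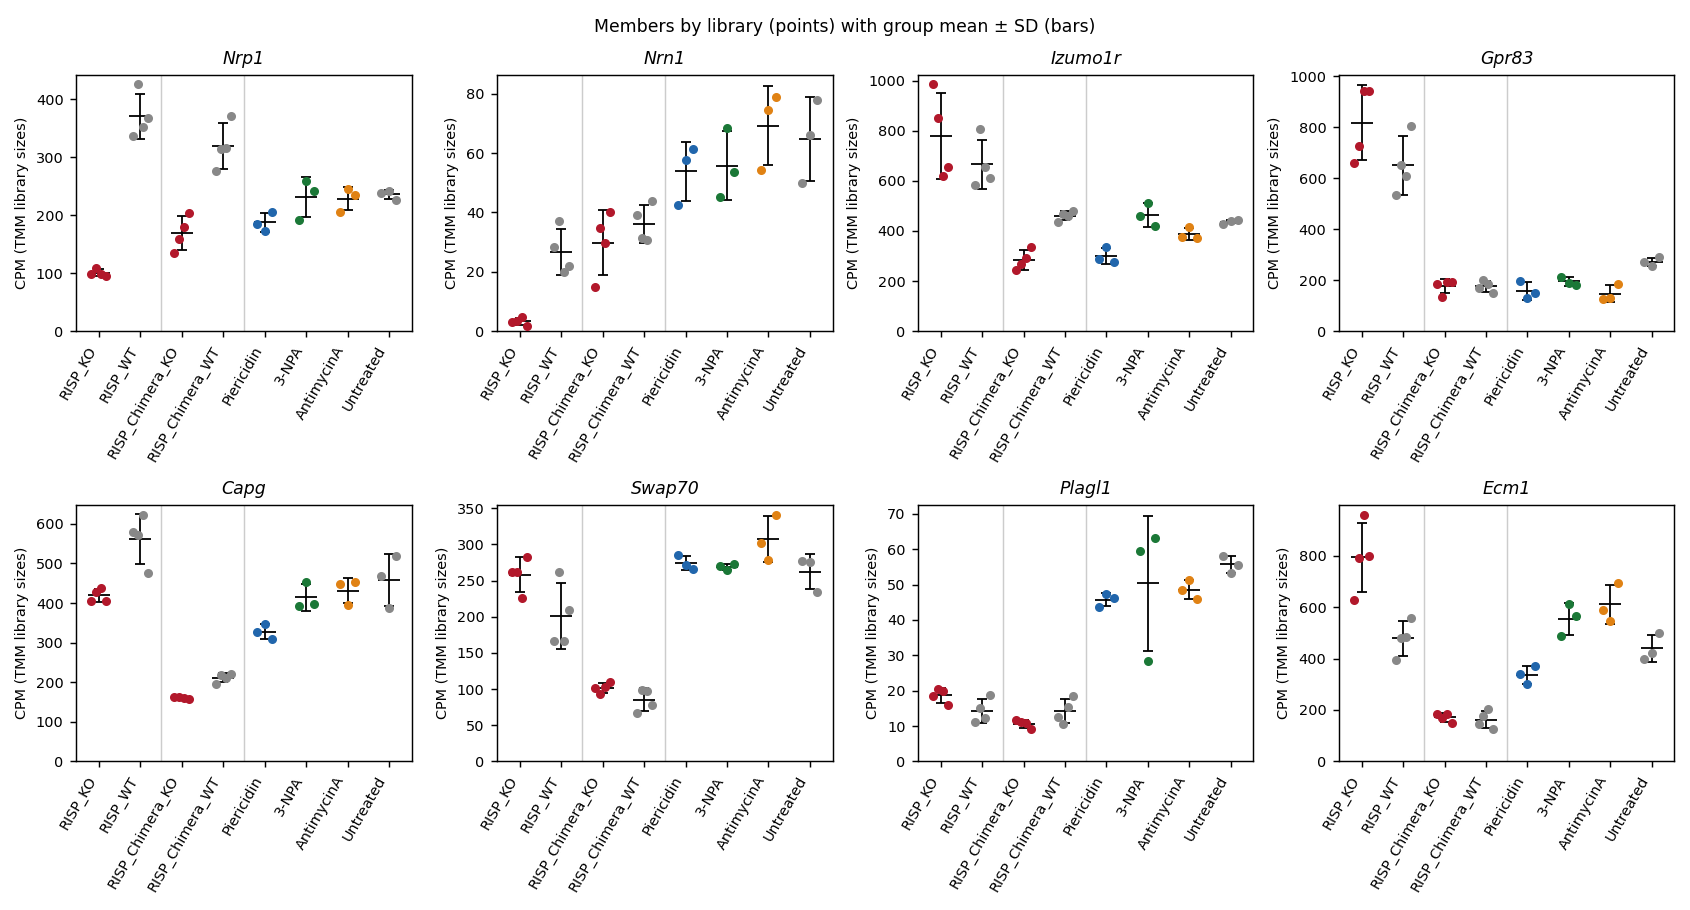
Level of each of the 8 genes in CPM (vertical axes, from 0) in every library of the 8 groups (horizontal axes). Points are libraries, bars are the group mean ± SD, and grey lines separate the 3 tables. Nrp1 and Nrn1 are low in RISP_KO, Izumo1r is low in RISP_Chimera_KO and with piericidin, and Gpr83 is low with all 3 inhibitors beside untreated cells.

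A gene is called where its Benjamini-Hochberg adjusted p over all genes tested is under 0.05 in edgeR's quasi-likelihood fit. In RISP_KO against RISP_WT 1 of the 8 genes was called higher (Ecm1) and 3 lower (Nrp1, Nrn1 and Capg), beside 4.78% called higher and 5.08% called lower of 13832 genes. The same 4 genes had CPM that did not overlap between the groups, which was so for 17.4% of all genes, 7.89% higher and 9.49% lower. In the chimeras none was called higher and 3 lower (Nrp1, Izumo1r and Capg), beside 0.167% and 0.542% of 14399 genes. These 3 also did not overlap, beside 7.51% of all genes, 3.4% higher and 4.1% lower. Because the genes were chosen on these contrasts, nothing is read from the shares.

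In vitro, piericidin gave 0 calls higher and 5 lower (Nrp1, Izumo1r, Gpr83, Capg and Ecm1), beside 5.62% and 7.93% of 11689 genes. These 5 and Plagl1 did not overlap and were lower, and none was higher without overlap, beside 28.8% of all genes, 15.2% lower and 13.7% higher. With 3-NPA 1 gene was called higher (Ecm1) and 1 lower (Gpr83), beside 1.35% and 1.87% of genes, and of the 8 only Gpr83 did not overlap, being lower, beside 20.7% of all genes, 11.3% lower and 9.43% higher. With antimycin A the same 2 genes were called, Ecm1 higher and Gpr83 lower, beside 6.5% and 8.5% of genes. Ecm1 and Swap70 were higher without overlap and Gpr83, Izumo1r and Plagl1 lower without overlap, beside 31.1% of all genes, 15.1% higher and 15.9% lower. The median log2 fold change of the 8 genes was 0.28 in RISP_KO, -0.34 in RISP_Chimera_KO, -0.36 with piericidin, -0.08 with 3-NPA and -0.07 with antimycin A, beside medians of 0.00, 0.00, 0.01, -0.01 and 0.02 over all genes.

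**Figure D2:**
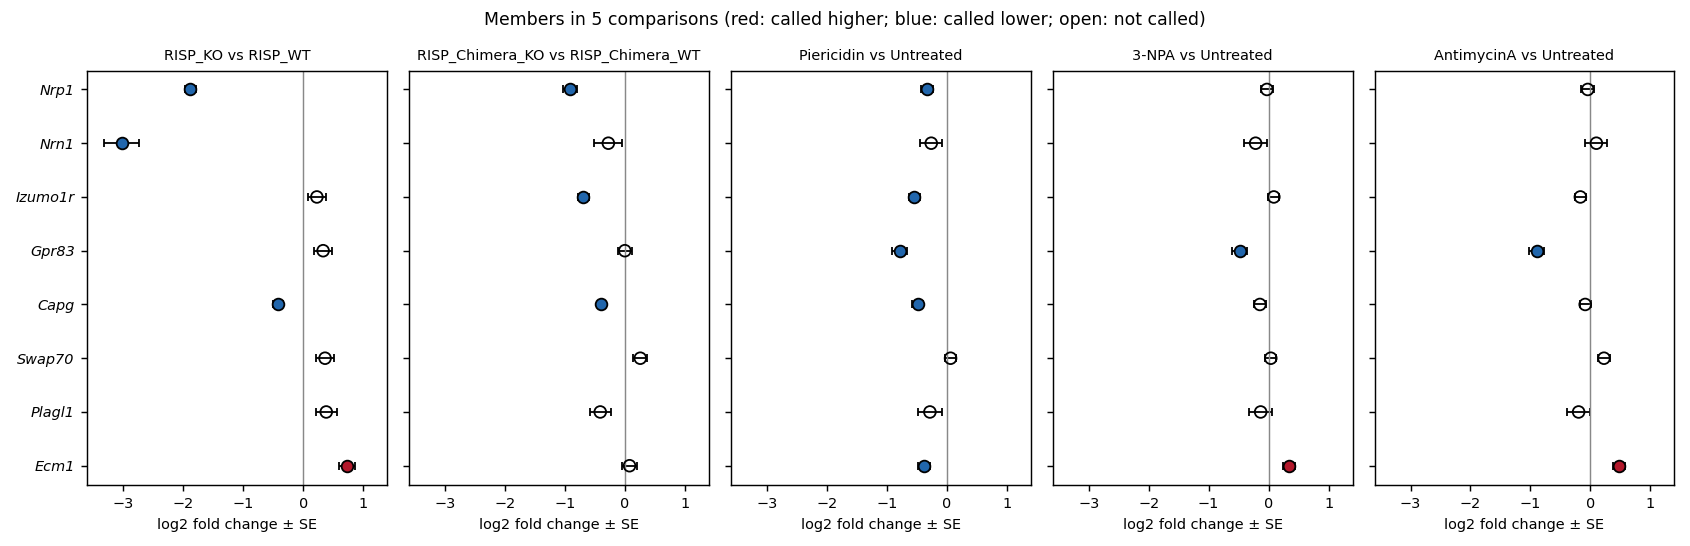
Log2 fold change ± SE (horizontal axes) of each gene (rows) in the 5 comparisons (panels, each against its own control). Red points are genes called higher, blue points genes called lower and open points genes not called. Nrp1 runs between -1.88 in RISP_KO and -0.03 with 3-NPA, and Ecm1 between -0.38 with piericidin and 0.73 in RISP_KO.

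Among the surface receptors, Nrp1 was low in both knockouts. It read 98.3, 109, 99.3 and 95.2 CPM in RISP_KO, against 337, 426, 352 and 368 CPM in RISP_WT. Every RISP_KO library lay far below every RISP_WT library, and the spread within RISP_KO was narrow, with a coefficient of variation of 6.03%. In chimeras it read 135, 160, 179 and 204 CPM in RISP_Chimera_KO, against 276, 315, 317 and 372 CPM in RISP_Chimera_WT. Here too the groups stood apart, but by less. Its log2 fold change was -1.88 ± 0.09 (SE) in RISP_KO and -0.92 ± 0.12 in RISP_Chimera_KO. Without RISP_Chimera_KO replicates 2 and 4, left out after seeing the data, it was -1.02 in the chimeras. The chimera effect minus the effect in 3-week-old mice was 0.95 ± 0.16 on the log2 scale.

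The inhibitors left Nrp1 closer to its control. It read 185, 173 and 205 CPM with piericidin, 193, 259 and 242 CPM with 3-NPA, and 206, 245 and 235 CPM with antimycin A, against 239, 243 and 227 CPM untreated. Piericidin libraries all lay below untreated ones, whereas those of the other 2 inhibitors overlapped them. On the log2 scale Nrp1 differed by -0.33 ± 0.11 with piericidin, -0.03 ± 0.10 with 3-NPA and -0.04 ± 0.10 with antimycin A. These last values turned to 0.09 without 3-NPA replicate 1 and 0.01 without antimycin A replicate 1. The piericidin call was lost without replicate 1 or 2 of piericidin or any 1 untreated library, with log2 fold changes between -0.36 and -0.28. Across the 8 groups Nrp1 was highest in RISP_WT (371 ± 39 CPM), which overlapped RISP_Chimera_WT, and lowest in RISP_KO (100.5 ± 6.1 CPM), which overlapped no other group.

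Nrn1 showed the largest difference of the 8 genes, in RISP_KO. It read 3.19, 3.34, 4.69 and 1.85 CPM in RISP_KO, from 64 to 167 reads a library, against 28.3, 37.0, 19.9 and 21.8 CPM in RISP_WT. The groups did not overlap, and the log2 fold change was -3.03 ± 0.29. In chimeras it read 14.8, 34.8, 29.6 and 40.0 CPM in RISP_Chimera_KO, against 39.2, 31.3, 30.6 and 43.8 CPM in RISP_Chimera_WT. Only replicate 1 of RISP_Chimera_KO stood well below the rest, and the groups overlapped. In chimeras the log2 fold change was -0.28 ± 0.23, but -0.05 without RISP_Chimera_KO replicate 1. Without replicates 2 and 4 of RISP_Chimera_KO, a choice made after seeing the data, it was -0.70. The chimera effect minus the effect in 3-week-old mice was 2.73 ± 0.40.

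In vitro the mean of Nrn1 was higher than in any freshly sorted group, and each inhibitor overlapped the untreated libraries. It averaged 53.9 ± 10.0 CPM with piericidin, 55.8 ± 11.7 CPM with 3-NPA and 69.3 ± 13.2 CPM with antimycin A, against 64.8 ± 14.1 CPM untreated (SD, n = 3 each). The log2 fold changes were -0.26 ± 0.19, -0.22 ± 0.19 and 0.10 ± 0.18. That of antimycin A turned to -0.06 without untreated replicate 1 and -0.01 without antimycin A replicate 3. Replicate 1 was the lowest library in every in vitro group, so these fits also unbalance the replicate numbers. Matched by number, all piericidin libraries lay below untreated ones and all antimycin A libraries above, replicate 3 only narrowly. Those of 3-NPA fell on both sides. With all libraries kept, the alternatives, a replicate block among them, gave -0.27 to -0.26 with piericidin and 0.09 to 0.10 with antimycin A.

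Izumo1r was lower in the chimera knockout and overlapped its control in the 3-week-old knockout. It read 988, 853, 620 and 656 CPM in RISP_KO, against 586, 808, 657 and 612 CPM in RISP_WT. The 2 highest libraries were knockouts, yet the groups overlapped. The log2 fold change was 0.23 ± 0.15, not called, and 0.09 without RISP_KO replicate 1. In chimeras it read 243, 267, 291 and 335 CPM in RISP_Chimera_KO, against 435, 468, 461 and 479 CPM in RISP_Chimera_WT. No RISP_Chimera_KO library reached the wild-type range, and the log2 fold change was -0.70 ± 0.09. It was -0.78 without RISP_Chimera_KO replicates 2 and 4, left out after seeing the data. The chimera effect minus the effect in 3-week-old mice was -0.94 ± 0.19.

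Among inhibitors Izumo1r was low with piericidin. It read 289, 336 and 276 CPM with piericidin, 459, 514 and 421 CPM with 3-NPA, and 378, 417 and 372 CPM with antimycin A, against 430, 438 and 443 CPM untreated. Piericidin libraries were the lowest 3 and antimycin A libraries lay just under the untreated ones, while 3-NPA libraries fell on both sides of them. Log2 fold changes of Izumo1r were -0.54 ± 0.09 with piericidin, 0.09 ± 0.09 with 3-NPA and -0.17 ± 0.09 with antimycin A. Piericidin against 3-NPA gave -0.63 ± 0.09, and antimycin A against piericidin 0.38 ± 0.09.

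Gpr83, the neighbour of Izumo1r, was low with every inhibitor and in neither knockout. It read 658, 726, 942 and 942 CPM in RISP_KO, against 532, 652, 610 and 806 CPM in RISP_WT, and averaged 176 ± 28 CPM in RISP_Chimera_KO and 176 ± 22 CPM in RISP_Chimera_WT (SD, n = 4 each). Both pairs of groups overlapped, with log2 fold changes of 0.33 ± 0.15 and 0.00 ± 0.12. In vitro it read 196, 130 and 148 CPM with piericidin, 213, 189 and 182 CPM with 3-NPA, and 126, 130 and 184 CPM with antimycin A, against 269, 257 and 290 CPM untreated. All 9 inhibitor libraries lay below all 3 untreated ones. Log2 fold changes of Gpr83 were -0.79 ± 0.13 with piericidin, -0.48 ± 0.12 with 3-NPA and -0.89 ± 0.13 with antimycin A. The 3-NPA call was lost without replicate 2 or 3 of 3-NPA or replicate 1 or 3 of untreated cells, with log2 fold changes between -0.49 and -0.43. Antimycin A against 3-NPA gave -0.41 ± 0.13, and antimycin A against piericidin -0.11 ± 0.13.

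Of the actin regulators, Capg was lower in both knockouts and with piericidin. It read 405, 428, 438 and 406 CPM in RISP_KO, against 579, 572, 623 and 475 CPM in RISP_WT, and 163, 163, 161 and 156 CPM in RISP_Chimera_KO, against 196, 217, 211 and 221 CPM in RISP_Chimera_WT. Neither pair overlapped, and the RISP_Chimera_KO libraries varied by only 1.93% (coefficient of variation). The log2 fold changes were -0.42 ± 0.09 and -0.39 ± 0.06, and their difference 0.01 ± 0.11 on the log2 scale. The chimera call was lost without replicate 1 or 3 of RISP_Chimera_KO or replicate 2, 3 or 4 of RISP_Chimera_WT, with log2 fold changes between -0.40 and -0.37. Piericidin libraries read 327, 347 and 309 CPM, against 468, 388 and 519 CPM untreated, all below the untreated range. The log2 fold change was -0.49 ± 0.10 with piericidin, -0.15 ± 0.09 with 3-NPA and -0.09 ± 0.09 with antimycin A.

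Swap70 was called in none of the 5 comparisons. Its log2 fold changes lay above 0, but without untreated replicate 3 those of piericidin and 3-NPA were -0.02 and -0.04. It averaged 258 ± 24 CPM in RISP_KO and 201 ± 46 CPM in RISP_WT, and 102 ± 7 CPM in RISP_Chimera_KO and 85.3 ± 15.6 CPM in RISP_Chimera_WT (SD, n = 4 each). Both pairs overlapped, with log2 fold changes of 0.36 ± 0.14 and 0.25 ± 0.11. Without RISP_WT replicate 2, which at 262 CPM lay within the RISP_KO range, the fold change was 0.52 and the gene was called. Antimycin A libraries read 302, 279 and 341 CPM, against 277, 276 and 234 CPM untreated, so that the lowest treated library lay just above the highest untreated one. Log2 fold changes of Swap70 were 0.23 ± 0.09 with antimycin A, 0.06 ± 0.09 with piericidin and 0.04 ± 0.09 with 3-NPA.

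Plagl1, the transcription factor, was the least abundant of the 8 genes per length in 7 of the 8 groups, at 1.37 to 7.12 RPKM, and was called in none of the 5 comparisons. It read 18.5, 20.6, 19.8 and 15.8 CPM in RISP_KO, against 11.2, 15.2, 12.1 and 18.7 CPM in RISP_WT, and 11.7, 11.1, 10.9 and 9.05 CPM in RISP_Chimera_KO, against 12.4, 10.5, 15.5 and 18.4 CPM in RISP_Chimera_WT. The knockout mean was above the wild-type mean in 3-week-old mice and below it in chimeras, with overlap in both. The log2 fold changes were 0.38 ± 0.18 and -0.41 ± 0.18. In vitro the log2 fold changes lay between -0.28 ± 0.20 with piericidin and -0.13 ± 0.20 with 3-NPA. With 3-NPA replicate 2 read 28.5 CPM, from 77 reads, and the other two libraries 59.6 and 63.2 CPM, a wider spread than in any other in vitro group. Without 3-NPA replicate 2 the log2 fold change was 0.15. Piericidin libraries, at 43.6 to 47.3 CPM, and antimycin A libraries, at 45.8 to 51.2 CPM, lay below the untreated ones at 53.2 to 58.2 CPM.

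Ecm1, the secreted member, was high in RISP_KO and opposite in direction between inhibitors. It read 628, 793, 957 and 799 CPM in RISP_KO, against 394, 479, 482 and 557 CPM in RISP_WT, with no overlap and a log2 fold change of 0.73 ± 0.13. In chimeras it averaged 172 ± 17 CPM in RISP_Chimera_KO and 163 ± 33 CPM in RISP_Chimera_WT (SD, n = 4 each), with overlap and a log2 fold change of 0.07 ± 0.13, or -0.02 without RISP_Chimera_WT replicate 4. In vitro it read 340, 300 and 370 CPM with piericidin, 488, 610 and 566 CPM with 3-NPA, and 589, 548 and 695 CPM with antimycin A, against 397, 422 and 500 CPM untreated. Piericidin libraries lay below the untreated range and antimycin A libraries above it, while the lowest 3-NPA library fell within it. The log2 fold change was -0.38 ± 0.10 with piericidin, 0.34 ± 0.10 with 3-NPA and 0.47 ± 0.10 with antimycin A. The piericidin call was lost without piericidin replicate 2 or untreated replicate 3 (-0.31 and -0.29), and the 3-NPA call without replicate 2 or 3 of 3-NPA or replicate 1 or 2 of untreated cells (0.27 to 0.33). Antimycin A against piericidin gave 0.86 ± 0.10, the widest gap between inhibitors among the 8 genes.

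Per length of transcript (RPKM on exonic bases), Izumo1r was the most abundant of the genes in 5 groups and Ecm1 in the piericidin, 3-NPA and antimycin A groups. Izumo1r averaged 336 ± 75 RPKM in RISP_KO and 287 ± 43 RPKM in RISP_WT, and Nrn1 1.45 ± 0.52 RPKM in RISP_KO and 11.9 ± 3.4 RPKM in RISP_WT. The median coefficient of variation between libraries was 7.70% to 16.3% by group.

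The partners of neuropilin-1 were read from a list of 36 plexins, semaphorins, VEGF ligands and receptors and signalling genes. In RISP_KO 3 of 25 tested rose and 2 fell (4.78% and 5.08% of all genes). The shares of all genes given above for each comparison also apply to the lists below, and no list was tested against them. Sema4f, a class 4 semaphorin, rose to 27.7 ± 7.4 CPM against 13.2 ± 1.6 CPM in RISP_WT (log2 fold change 1.07 ± 0.19, edgeR adjusted p = 0.00602), and Vegfa, a ligand of neuropilin-1, rose by 1.55 ± 0.32 (adjusted p = 0.0114) at only 3.58 ± 0.72 CPM against 1.22 ± 0.49 CPM. Sema6d fell by 3.19 on the log2 scale (adjusted p = 0.00768), at under 1 CPM in both groups. Sema4a, which encodes the neuropilin-1 ligand semaphorin-4A, is named after its value was seen. It rose to 72.5 ± 16.2 CPM against 43.2 ± 8.6 CPM (log2 fold change 0.75 ± 0.17, edgeR adjusted p = 0.0219), and this was lost without RISP_WT replicate 2, 3 or 4 (adjusted p = 0.0517 to 0.0689).

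In chimeras 0 of 25 partner genes were called by edgeR or by DESeq2, with 5 at an unadjusted p under 0.05, and Sema4a stood at 70.3 ± 9.9 CPM in RISP_Chimera_KO and 62.7 ± 9.3 CPM in RISP_Chimera_WT. With piericidin 1 of 21 rose and 1 fell; the gene that fell was Plxnb1, a plexin at 3.32 ± 1.87 CPM against 10.6 ± 4.6 CPM untreated (log2 fold change -1.64 ± 0.50, edgeR adjusted p = 0.0219). The Plxnb1 call was lost without piericidin replicate 1 or 2 or untreated replicate 2 (adjusted p = 0.0603 to 0.143). With antimycin A 2 of 21 rose and 0 fell (6.5% and 8.5% of all genes). Among the 2, Foxo3, a Foxo factor, rose by 0.44 ± 0.13 (edgeR adjusted p = 0.0195). The Foxo3 call was lost without antimycin A replicate 1 or 3 or untreated replicate 3 (adjusted p = 0.0501 to 0.18). With 3-NPA 0 of 21 were called by edgeR and 1 by DESeq2, with 2 at an unadjusted p under 0.05. The list's median log2 fold change lay between -0.11 with piericidin and 0.14 with 3-NPA. The knockout effect differed between chimeras and 3-week-old mice for 3 of 26 genes. Among them the difference was -1.38 ± 0.26 for Sema4f (edgeR adjusted p = 0.00478) and -0.92 ± 0.23 for Plxnc1 (adjusted p = 0.0329). With 1 library left out at a time, the Plxnc1 difference missed the threshold in 9 of 16 fits (edgeR adjusted p = 0.053 to 0.0831).

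Of 9 neuritin-family and AMPA receptor genes only 3 could be tested, and neither tool called any in the 5 comparisons. Of these, 1 had an unadjusted p under 0.05 in RISP_KO, 2 with piericidin and 0 in the other 3 comparisons, and the 2 with the smallest p in RISP_KO were the cornichon genes Cnih4 (0.17 ± 0.07) and Cnih1 (-0.08 ± 0.08).

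Among 10 lymphocyte G protein-coupled receptors and candidate ligands, taken for Gpr83, 2 of 8 rose in RISP_KO (4.78% of all genes). They were Gpr183, the oxysterol receptor that guides lymphocyte positioning (241 ± 48 CPM against 128 ± 26 CPM in RISP_WT, log2 fold change 0.92 ± 0.17, edgeR adjusted p = 0.00767), and Gpr18 (0.63 ± 0.12, adjusted p = 0.00939). With antimycin A 4 of 7 rose (6.5% of all genes). Among these Gpr132 rose by 0.68 ± 0.13 (edgeR adjusted p = 0.000163), S1pr1, the receptor for egress from lymph nodes, by 0.53 ± 0.11 (adjusted p = 0.00036) and Gpr174 by 0.42 ± 0.13 (adjusted p = 0.0294). The fourth, S1pr4 (0.47 ± 0.16, edgeR adjusted p = 0.0438), named after its value was seen, was lost without any 1 of the 6 libraries except antimycin A replicate 1 (adjusted p = 0.0701 to 0.276). Gpr174 was lost without any 1 library except antimycin A replicate 3 (adjusted p = 0.0515 to 0.173). Gpr132 also rose with 3-NPA (0.51 ± 0.13, edgeR adjusted p = 0.0179), which was lost without replicate 1 or 3 of 3-NPA or of untreated cells (adjusted p = 0.0506 to 0.112). Piericidin gave 0 of 7 called by edgeR and 2 by DESeq2, with 4 at an unadjusted p under 0.05, and the chimeras 0 of 8 by both, with 1. The difference between knockout effects was called for Gpr183 (-1.09 ± 0.25, edgeR adjusted p = 0.0191), and was lost without RISP_Chimera_WT replicate 2 (adjusted p = 0.0506).

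Among 18 actin and gelsolin-family genes and their regulators, taken for Capg and Swap70, Pfn1, which encodes the actin monomer binder profilin-1, fell with all 3 inhibitors. It averaged 1299 ± 50 CPM with piericidin, 1282 ± 24 CPM with 3-NPA and 1367 ± 60 CPM with antimycin A, against 1657 ± 106 CPM untreated (edgeR adjusted p = 0.000664, 0.00195 and 0.00567). The antimycin A call was lost without untreated replicate 1 (adjusted p = 0.0524). Scin, a gelsolin-family relative of Capg, rose in RISP_KO to 10.9 ± 6.3 CPM against 1.13 ± 0.85 CPM in RISP_WT (log2 fold change 3.23 ± 0.58, edgeR adjusted p = 0.00577) and fell with piericidin to 11.5 ± 4.2 CPM against 31.7 ± 12.0 CPM untreated (-1.44 ± 0.30, adjusted p = 0.00076). Def6, the closest relative of Swap70, fell with piericidin by 0.33 on the log2 scale (edgeR adjusted p = 0.0479), which was lost without any 1 library but untreated replicate 2 (adjusted p = 0.0728 to 0.334). Irf4, a transcription factor that Swap70 and Def6 proteins are known to hold in check, rose in RISP_KO to 82.2 ± 13.7 CPM against 54.7 ± 3.3 CPM in RISP_WT (0.59 ± 0.12, edgeR adjusted p = 0.0128). In chimeras Irf4 fell to 55.1 ± 10.5 CPM in RISP_Chimera_KO against 82.8 ± 6.4 CPM in RISP_Chimera_WT (-0.59 ± 0.12, adjusted p = 0.0496), a call lost without any 1 library but RISP_Chimera_KO replicate 2 (adjusted p = 0.0704 to 0.136).

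The Irf4 effects differed between the settings by -1.20 ± 0.18 (edgeR adjusted p = 0.00112), and those of Scin by -3.22 ± 0.81 (adjusted p = 0.0351). The Scin call was lost in 11 of 16 fits with 1 library left out (edgeR adjusted p = 0.051 to 0.0868). Cdc42, a small GTPase that acts on the actin cytoskeleton, fell in RISP_KO by 0.36 on the log2 scale (edgeR adjusted p = 0.0365), a call lost without RISP_KO replicate 1 or 2 or RISP_WT replicate 1, 3 or 4 (adjusted p = 0.0573 to 0.113). In all, 2 of 17 actin genes rose and 1 fell in RISP_KO (4.78% and 5.08% of all genes). Of 18 in RISP_Chimera_KO 0 rose and 1 fell (0.167% and 0.542%). Of 16 tested in vitro, piericidin had 0 rising and 3 falling (5.62% and 7.93%), and 3-NPA 0 rising and 1 falling (1.35% and 1.87%). Antimycin A had 1 rising and 2 falling (6.5% and 8.5%). The antimycin A calls were Pfn1, Cfl1 (cofilin, -0.27 ± 0.08, edgeR adjusted p = 0.0159) and Gsn (gelsolin, 0.79 ± 0.28, adjusted p = 0.0466), and each was lost without at least 1 library.

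Of 14 imprinted and Plag-family genes, Plagl2, the paralogue of Plagl1, rose in RISP_KO to 101 ± 5 CPM against 61.3 ± 4.5 CPM in RISP_WT (log2 fold change 0.71 ± 0.08, edgeR adjusted p = 0.000541). In chimeras Plagl2 averaged 96.6 ± 8.2 CPM in RISP_Chimera_KO and 106 ± 8 CPM in RISP_Chimera_WT, and the difference of the effects was -0.86 ± 0.12 (adjusted p = 0.000575). Cdkn1c, an imprinted cell cycle inhibitor, fell in RISP_KO by 1.01 on the log2 scale (edgeR adjusted p = 0.0391), a call lost without RISP_KO replicate 1, 2 or 4 or RISP_WT replicate 1, 3 or 4 (adjusted p = 0.057 to 0.108). No other gene of the 9 tested there was called. Igf2r rose with antimycin A by 0.38 ± 0.09 (adjusted p = 0.00157), the 1 call of 5. The other 3 comparisons had none by edgeR, 0 (chimeras), 1 (piericidin) and 1 (3-NPA) by DESeq2, and 1 gene each at an unadjusted p under 0.05.

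**Figure D3:**
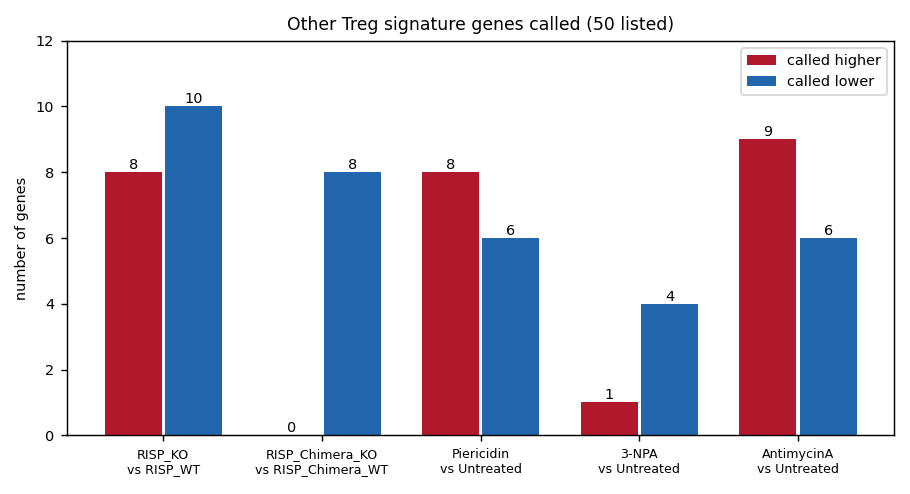
Number of the 50 other Treg signature genes called higher (red bars) and lower (blue bars) in each comparison. RISP_Chimera_KO has 8 lower and 0 higher, while the other comparisons have calls in both directions.

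A further 50 Treg signature genes were read for the same comparisons. In RISP_KO 8 of 50 rose and 10 fell (4.78% and 5.08% of all genes), with a median log2 fold change of -0.04. Those with the smallest p fell, namely Nt5e, the ectoenzyme CD73 (168 ± 27 CPM against 352 ± 26 CPM in RISP_WT, edgeR adjusted p = 0.000433), Tigit, an inhibitory receptor (8.06 ± 0.40 CPM against 23.0 ± 5.2 CPM, adjusted p = 0.000438), and Rora, a nuclear receptor (30.0 ± 4.2 CPM against 81.2 ± 17.8 CPM, adjusted p = 0.000457). In RISP_Chimera_KO 0 rose and 8 fell (0.167% and 0.542% of all genes), with a median of -0.45 beside 0.00 over all genes. They were led by Myo3b (5.39 ± 1.00 CPM against 19.3 ± 5.1 CPM in RISP_Chimera_WT, edgeR adjusted p = 0.00119), Itgae, the integrin chain CD103 (17.2 ± 7.8 CPM against 62.4 ± 16.9 CPM, adjusted p = 0.00935), and Bmp7 (7.76 ± 3.19 CPM against 23.6 ± 5.5 CPM, adjusted p = 0.0117). The count of 8 was 3 without RISP_Chimera_WT replicate 2, and 4 without RISP_Chimera_WT replicate 1, 3 or 4 or RISP_Chimera_KO replicate 3. It was 17, all lower, without RISP_Chimera_KO replicates 2 and 4. These are the libraries highest in macrophage markers, left out after seeing the data.

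In vitro, 8 of 49 signature genes rose and 6 fell with piericidin (5.62% and 7.93% of all genes). With 3-NPA 1 rose and 4 fell (1.35% and 1.87%), and with antimycin A 9 rose and 6 fell (6.5% and 8.5%). The medians of the list were 0.00, -0.08 and 0.08 in this order. Tnfrsf9, the co-stimulator 4-1BB, rose to 1685 ± 157 CPM with piericidin and 1396 ± 175 CPM with antimycin A, against 824 ± 71 CPM untreated (edgeR adjusted p = 2.19e-10 and 2.33e-08). Itgb8, the integrin chain that activates TGF-beta, rose with piericidin (0.91 ± 0.14, edgeR adjusted p = 9.89e-06), Penk, which encodes proenkephalin, with antimycin A (0.72 ± 0.14, adjusted p = 0.000337), and Tigit with antimycin A (0.62 ± 0.12, adjusted p = 0.000373) and with 3-NPA (0.59 ± 0.12, adjusted p = 0.00436). Gbp2b, an interferon-induced GTPase, fell with 3-NPA (-0.57 ± 0.11, adjusted p = 0.00226), a call lost without 3-NPA replicate 3 (adjusted p = 0.0546). The 3-NPA count of 5 was 3 without untreated replicate 1 or 3 or 3-NPA replicate 2 or 3. Socs2, a suppressor of cytokine signalling, was called in all 5 comparisons and in both directions, and is named here in part after its values were seen. It rose in RISP_KO to 151 ± 14 CPM against 85.8 ± 11.2 CPM in RISP_WT (edgeR adjusted p = 0.00107) and fell in RISP_Chimera_KO to 49.0 ± 5.8 CPM against 69.8 ± 2.5 CPM in RISP_Chimera_WT (adjusted p = 0.0228). Its chimera call was lost without any 1 library but RISP_Chimera_KO replicate 1 or 2 (adjusted p = 0.0613 to 0.0923). Socs2 also fell with piericidin (-0.60 ± 0.09), 3-NPA (-0.49 ± 0.09) and antimycin A (-0.43 ± 0.09).

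The difference of the knockout effects, chimeras minus 3-week-old mice, was called for 18 of 50 signature genes, 15 lower and 3 higher. Among the 8 genes described here 2 were called higher (Nrp1 and Nrn1) and 1 lower (Izumo1r), beside 1.23% and 2.04% of 15580 genes, again with nothing read from it. Socs2 had -1.34 ± 0.15 (edgeR adjusted p = 9.63e-05), Cst7, the protease inhibitor cystatin F, -1.84 ± 0.23 (adjusted p = 0.000249) and Itgae -2.52 ± 0.40 (adjusted p = 0.00175). The 3 higher ones, named after their values were seen, were Rora (1.30 ± 0.24, edgeR adjusted p = 0.00474), Klrg1, a receptor of differentiated lymphocytes (2.96 ± 0.55, adjusted p = 0.00483), and Cd5, a damper of T cell receptor signals (0.54 ± 0.12, adjusted p = 0.0179). The count of 18 was 10 without RISP_WT replicate 3. Kit and age differ between these settings as well as the chimera, and cannot be told apart.

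**Figure D4:**
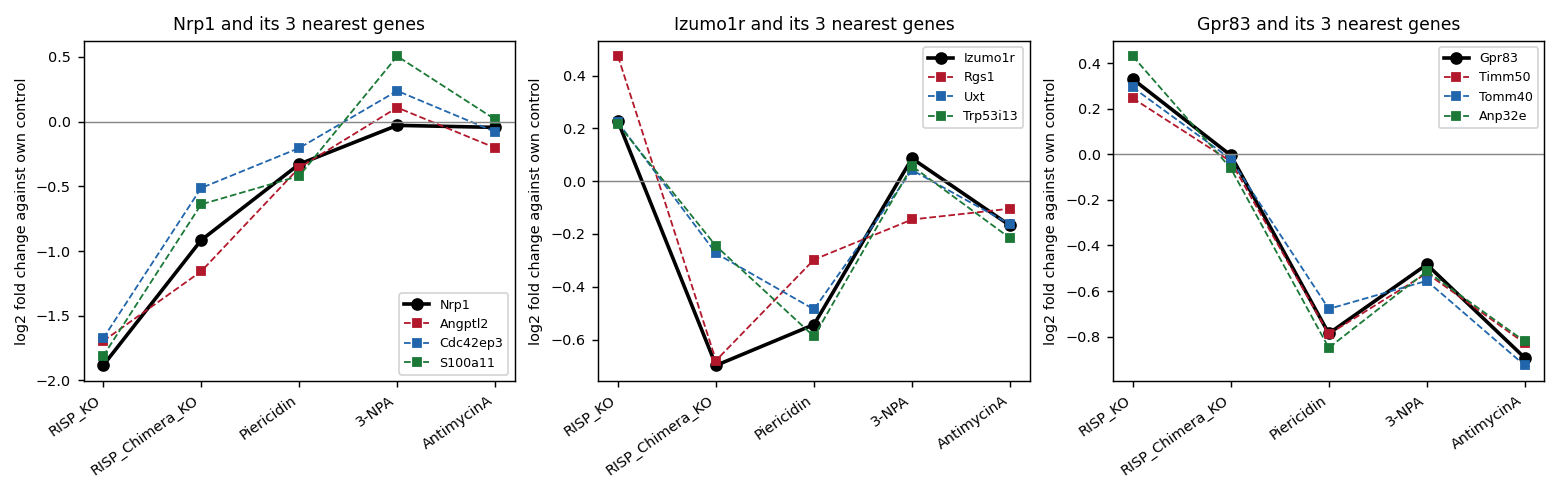
Log2 fold change (vertical axes) in each of the 5 comparisons against its own control (horizontal axes) for Nrp1, Izumo1r and Gpr83 (black) and the 3 genes with the most similar 5 values (dashed). Lines only join values of 1 gene. The 4 lines of the Gpr83 panel lie closest together, with root mean square differences from Gpr83 of 0.0518 to 0.0686.

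For each gene the most similar pattern was sought among 7833 genes, by the root mean square difference of the 5 log2 fold changes. The 3 inhibitor values share their control and lean on the same libraries. This difference is not scaled to the size of the changes, so a gene with a large change has fewer genes near it. In RISP_KO only 0.484% of genes tested changed by as much as Nrn1. Nrp1 was nearest to Angptl2, which encodes a secreted angiopoietin-like protein (0.166, with -1.70 in RISP_KO and -1.16 in RISP_Chimera_KO), then Cdc42ep3 (0.243) and the calcium-binding S100a11 (0.276). Nrn1 had no close match, with Ncmap at 0.474, S100a4 at 0.480 and Cd38 at 0.534. Gpr83 had the closest, namely Timm50 (0.0518) and Tomm40 (0.0625), which encode parts of the mitochondrial protein import machinery, and Anp32e (0.0686). Timm50 had log2 fold changes of -0.79 with piericidin, -0.52 with 3-NPA and -0.83 with antimycin A.

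Izumo1r was nearest to Rgs1, a regulator of G protein signalling (0.189), Uxt (0.193) and Trp53i13 (0.205). Rgs1 had 0.47 in RISP_KO and -0.68 in RISP_Chimera_KO, and Izumo1r 0.23, not called, and -0.70. The Rgs1 call in RISP_KO was lost in 6 of 8 fits with 1 library left out (edgeR adjusted p = 0.0519 to 0.0799). Ecm1 was nearest to Cd74, the invariant chain of MHC class II (0.129), the p53 target Bax (0.150) and Syne3 (0.168). Capg was nearest to Supt4a (0.0830), Chpf (0.0896) and Lamtor4 (0.0901), Swap70 to Ago2 (0.0764), Ddx52 (0.0802) and Mtmr3 (0.0811), and Plagl1 to Eef1e1 (0.0904), Pusl1 (0.0927) and Apobec3 (0.103). Among the 8 genes themselves the closest pair was Plagl1 and Izumo1r, at 0.210, followed by Ecm1 and Swap70 at 0.322.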

How the data were processed

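Counts of reads per gene were used as the authors deposited them, in 3 tables for 28 libraries. Per the submitters' processing notes, bcl2fastq, TopHat, HTSeq and edgeR were used with the mm10 build, with versions and the strand setting of the counting not given in the sources used here. Per the labels' protocols, RISP_KO and RISP_WT libraries were made with the SMART-Seq v4 kit, and the chimera and in vitro libraries with NEBNext poly(A) selection. The tables hold 11 further per-sample columns that match no sample used here, and these were left out.

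For the tests edgeR 4.0.16 was used, with limma 3.58.1 and R 4.3.3: filterByExpr, TMM, a quasi-likelihood fit per table with all its groups (both sorted tables together for the difference of the knockout effects), a prior count of 0.125 and Benjamini-Hochberg adjustment over all genes tested. Standard errors were taken as the absolute log2 fold change over the square root of F. The scripts were tested on simulated data with known changes. Alternatives were DESeq2 1.42.0, RLE factors, no filter on low counts, a filter of 1 CPM, only the 2 groups compared, a replicate block and each library left out, and, chosen after seeing the data, leaving out RISP_Chimera_KO replicates 2 and 4. RPKM uses the union of exons of GENCODE M21, from which the deposited length differs for all 8 genes. The 8 genes, the gene lists and the tests were chosen with earlier results of these data known. Within each list the text names the called genes with the smallest p (up to 3 a comparison, or up to 2 uncalled ones), and says where a gene falls outside that rule; some genes counted in the lists, and a list on folate, are not reported here. For each of the 8 genes it names the 3 genes with the nearest pattern, passing over predicted genes and immune receptor segments, and only where log2 CPM averaged 3 or more in every table.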

Additional observations from a re-analysis of the deposited data

Results flagged for a closer look

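For 3 of the 8 genes the knockout effect differed between chimeras and 3-week-old mice. The effect in chimeras minus that in 3-week-old mice was 0.95 ± 0.16 (SE, log2 scale) for Nrp1, 2.73 ± 0.40 for Nrn1 and -0.94 ± 0.19 for Izumo1r, in a fit with a term for that difference. The genes were chosen with these directions known, so the values are a description. Library kit and age differ between the settings and cannot be told apart from the chimera. Each of the 8 genes was also checked, in each group of 4 libraries, for a library standing apart from the rest. Of these 32 checks, which reuse the same libraries, 0 were flagged, where chance flags about 1 in 20.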

How the results depend on the processing

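All 672 alternative log2 fold changes of the 8 genes moved by less than 1 SD between libraries, and none of them changed sign where the gene was called. The sign of some uncalled values near 0 turned: Nrp1 with 3-NPA and antimycin A, Nrn1 with antimycin A, Gpr83 and Ecm1 in the chimeras, Swap70 with piericidin and 3-NPA, Plagl1 with 3-NPA, and the difference of Capg. Counts of calls moved more. DESeq2 called 2148 genes in RISP_KO (1364 with edgeR), 436 in RISP_Chimera_KO (102), 672 with 3-NPA (377) and 908 for the difference of knockout effects (509), with 14 other Treg signature genes in RISP_Chimera_KO (8), 8 with 3-NPA (5) and 5 of the 8 genes for the difference (3, gaining Plagl1 and Ecm1). Without a filter on low counts RISP_Chimera_KO had 208 genes. Without its replicates 2 and 4, a choice made after seeing the data, it had 247 genes and 17 other Treg signature genes. Log2 fold changes with this choice are given above only for Nrp1, Nrn1 and Izumo1r. For the other genes in chimeras, the alternatives apart from single libraries left out ran over -0.01 to 0.10 (Gpr83) and -0.39 to -0.38 (Capg). They ran over 0.25 to 0.27 for Swap70, -0.41 to -0.33 for Plagl1 and 0.07 to 0.18 for Ecm1. The cause of these shifts was not tested.

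With each library left out in turn, genes called ranged over 787 to 1486 in RISP_KO, 33 (without RISP_Chimera_WT replicate 2) to 177 (without RISP_Chimera_KO replicate 2) in RISP_Chimera_KO, 1009 to 1421 with piericidin, 130 to 295 with 3-NPA, 1261 to 1613 with antimycin A and 323 to 627 for the difference. Of the 8 genes, 4 to 5, 2 to 3, 3 to 5, 0 to 2, 2 to 2 and 3 to 4 were called in the same order. Other Treg signature genes ranged over 13 to 19, 3 to 11, 12 to 14, 3 to 4, 12 to 15 and 10 to 17.

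The labels do not say whether same-numbered replicates share more than a number. Deviations of same-numbered replicates correlated between -0.04 and 0.03 (3-week-old mice), between -0.10 and 0.13 (chimeras) and between 0.00 and 0.09 (in vitro). Samples correlated best with their own number in 0 of 4, 1 of 4 and 17 of 18 cases, a hint from the data and not from the design. The main fits, also those in vitro, have no term for replicate number. A replicate block gave 895 genes in RISP_KO, 324 for the difference and 8 other Treg signature genes with 3-NPA. With this block no in vitro call of the 8 genes described here was lost. Its counts of all genes called in vitro are not given here. In vitro depth, 2707199 to 3445930 counts a library, limits low genes such as Plagl1, with 77 reads in 3-NPA replicate 2.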
